A study of Mus musculus with 13 samples.

Results

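The aminoacyl-tRNA synthetase genes were taken from the deposited expression table by symbol: a capital letter followed by ars, with or without a closing 1 or 2, and Eprs, Farsa and Farsb besides. This rule found 37 of the 53465 genes in the table. Of these, 18 encode cytosolic enzymes, 17 encode mitochondrial enzymes (symbols ending in 2) and 2, Gars and Kars, encode enzymes that serve both compartments. The study made ovarian tumors in mice by electroporation (EPO-GEMM, a genetically engineered model without germline alleles) and sequenced polyA-selected RNA from bulk tissue. The WT group held 3 untreated normal ovaries of wild-type C57BL/6 mice, whose ages are not given in the sources used here. The MP group held 10 untreated tumors labelled Myc;p53-/-. Each arose in a female wild-type C57BL/6 host, 8 to 12 weeks old when plasmids carrying a MYC transposon, its Sleeping Beauty transposase, and Cas9 with a guide against Trp53 were delivered to the ovary. Delivery was not limited to any cell type, a tumor can hold several edited clones, and host stroma, vessels and immune cells stay in the tissue that was sequenced.

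Aminoacyl-tRNA synthetases join each amino acid to its tRNA, the step that fixes the genetic code and supplies the ribosome. All of these enzymes are encoded in the nucleus, including those imported into mitochondria to charge the tRNAs of the mitochondrial genome. Most amino acids therefore have a cytosolic and a separate mitochondrial enzyme, and Eprs fuses the glutamate and proline enzymes into a single cytosolic chain. Of the 37 genes, 8 encode members of the multi-synthetase complex, a cytosolic assembly held together by the scaffold proteins AIMP1, AIMP2 and EEF1E1. Several cytosolic genes are known targets of ATF4, the transcription factor of the amino acid response, and Wars is known to be induced by interferon gamma.

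Expression was given as TPM, the share of a library's transcripts that a gene takes once its reads are divided by its length. Reads worked back from the TPM values numbered 31445004 to 64013840 in the WT ovaries and 3892690 to 19906507 in the MP tumors, so the tumor values rest on fewer reads. The label descriptions carry a number after the letters IGO, which took 3 values. It is called the library request number here, a name the labels do not give. Whether it marks a library preparation, a sequencing run or both is not given in the sources used here. The first request covered the 3 WT ovaries and MP1 to MP3, the second MP4 to MP6, and the third MP7 to MP10. Only the first request held both groups, and values within it are given beside most tests over all 13 libraries. Trp53, the edited gene, was at 80.7, 85.0 and 85.4 TPM in the WT ovaries. In the tumors it was at 4.30, 12.2, 6.29, 14.4, 26.0, 13.5, 9.39, 22.5, 24.7 and 187 TPM in MP1 to MP10 in turn. The library labelled MP10 was the only tumor above the WT ovaries; RNA level does not read out an edit. The library of MP2 stood apart as well, with 55.1% of its TPM in its 10 most abundant genes against 7.92% to 20.6% in the other 12 libraries. The 10 markers of follicle and luteal cells summed to 28249 to 34120 TPM in the WT ovaries and to 11.9 to 2269 TPM in the tumors, and all 10 had the lower mean there. The sums of 7 oocyte markers were 295 to 439 and 1.38 to 22.8 TPM, those of 6 fibroblast markers 1323 to 2304 and 87.2 to 4632 TPM, and those of 6 smooth muscle markers 1370 to 1604 and 52.7 to 1271 TPM. Endothelial (5 genes; 238 to 253 and 4.14 to 180 TPM), leukocyte (8 genes; 985 to 3169 and 478 to 3657 TPM) and epithelial markers (9 genes; 289 to 320 and 8.28 to 1201 TPM) also varied. The mean was lower in the tumors for 5 of 5 endothelial, 8 of 8 leukocyte and 6 of 9 epithelial markers. No defining marker was at 0 in every tumor. Under 1 TPM in 9 or 10 tumors were 6 of 7 oocyte markers, 3 follicle and luteal markers (Cyp19a1, Fshr and Lhcgr), Cd3e and Muc16. The part of these cell types in the synthetase results was not tested, and in bulk tissue fewer cells of a type and less RNA per cell cannot be told apart.

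In the normal ovary the cytosolic enzymes had the higher RNA levels. Over the 18 cytosolic genes the mean TPM of the WT ovaries ran from 21.6 for Cars, the cysteine enzyme, to 237 for Nars, the asparagine enzyme, with a median of 78.2. Over the 17 mitochondrial genes it ran from 4.75 for Mars2, the methionine enzyme, to 310 for Lars2, the leucine enzyme, with a median of 19.96. Gars (glycine) and Kars (lysine) had WT means of 151 and 115 TPM. Replicate ovaries lay close together: the highest ovary was a median of 1.20 times the lowest over the 37 genes, and at most 1.61 times, for Lars2. Over the 10 MP tumors the median ratio of highest to lowest was 5.23, which with 10 libraries against 3 is not on equal terms with that of the ovaries. It ran from 1.66 for Hars2, the mitochondrial histidine enzyme, to 24.1 for Vars, the cytosolic valine enzyme. Without MP2, the lowest tumor for 31 of the 37 genes, the median ratio was 3.19 and that of Vars 11.9, and the ratios ran from 1.48 for Sars to 18.4 for Vars2.

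All 37 genes passed the filter on low values (3 or more libraries reaching 1 TPM), as did 17277 genes in all. In limma's moderated test on log2(TPM + 1), adjusted over those 17277 genes, Yars2 and Mars2 were higher in the MP tumors and no synthetase gene was lower. The share called over all genes was 2.51% higher and 14.3% lower, so 2 of 37 called higher lay near the background and none called lower lay below it. At an unadjusted P under 0.05, 3 synthetase genes differed (Yars2, Mars2 and, in the lower direction, Aars), against 33.0% of all genes tested. Both genes that rose encode mitochondrial enzymes: 2 of 17 mitochondrial, 0 of 18 cytosolic and 0 of 2 shared genes passed, a difference between compartments that was not tested. This split changed with the setting. Under median-of-ratios scaling 5 mitochondrial, 6 cytosolic and 2 shared genes were higher, against 7.47% of all genes. Within the first request 2 mitochondrial genes were higher, and 5 mitochondrial and 7 cytosolic genes were lower, against 6.44% and 57.3% of all genes.

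The fold changes of the synthetase genes lay above those of most genes. The median log2 fold change of all genes tested was -0.58, and 69.9% of them were below 0. Of the synthetase genes, 13 of 37 (35.1%) were below 0, the median was 0.22, and 34 lay above the median of all genes. The median was 0.05 over the cytosolic genes, 0.38 over the mitochondrial genes and 0.78 over the 2 shared genes. These medians moved with the setting: within the first request they were -0.81, -0.03 and 0.17, and -0.40 over all 37 genes, while under median-of-ratios scaling they were 0.77, 1.05 and 1.502, and 0.93 over all 37. The 8 genes of the multi-synthetase complex had a median of 0.17, the 12 known ATF4 targets among the synthetase genes a median of -0.05, and none of either passed the test. By catalytic class, the 2 unrelated folds into which the enzymes divide, the 18 genes of class I had a median of 0.05 and the 18 of class II a median of 0.35, which were -0.67 and -0.29 within the first request and 0.77 and 1.005 with median-of-ratios scaling. The calls changed with the scaling and with the libraries used. Scaled by the median of ratios, which put the median of all genes at -0.02, 13 synthetase genes were higher (7.47% of all genes) and 0 lower (10.9%). Yars2, Mars2, Gars, Kars, Eprs, Sars and Vars were among those 13. With that scaling 3 of the 8 complex genes and 3 of the 12 known ATF4 targets were higher, and their medians were 0.88 and 0.65; within the first request 2 and 6 were lower, and the medians were -0.37 and -0.81. Within the first request, where the median of all genes was -1.19, 2 synthetase genes were higher (6.44% of all genes) and 12 lower, against 57.3% of all genes lower. Those 12 were Aars, Aars2, Ears2, Iars, Iars2, Nars, Qars, Tars, Vars2, Wars, Wars2 and Yars.

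The other settings gave counts that are read against their own backgrounds. Quantile normalization called 12 synthetase genes higher and 1 lower (11.0% and 12.1% of all genes), removal of the length trend 14 and 0 (11.6% and 9.27%), removal of chromosome medians 15 and 1 (12.9% and 6.70%), and limma-voom on reads worked back from TPM 18 and 1 (16.0% and 17.5%). The gene called lower in these was Aars. With the request as a covariate 3 were higher and 11 lower (5.17% and 49.4%), and with the replicate number as a block within the first request 2 and 9 (6.34% and 56.9%). Yars2 and Mars2 alone, 2 higher and 0 lower, were called with a pseudocount of 0.1 (2.44% and 10.1%), with no filter (1.14% and 11.0%), with a filter of 5 TPM (3.19% and 13.1%), without limma's trend and robust options (2.58% and 14.6%), and with ribosomal RNA genes and Lars2 left out (3.53% and 15.3%).

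**Figure D1:**
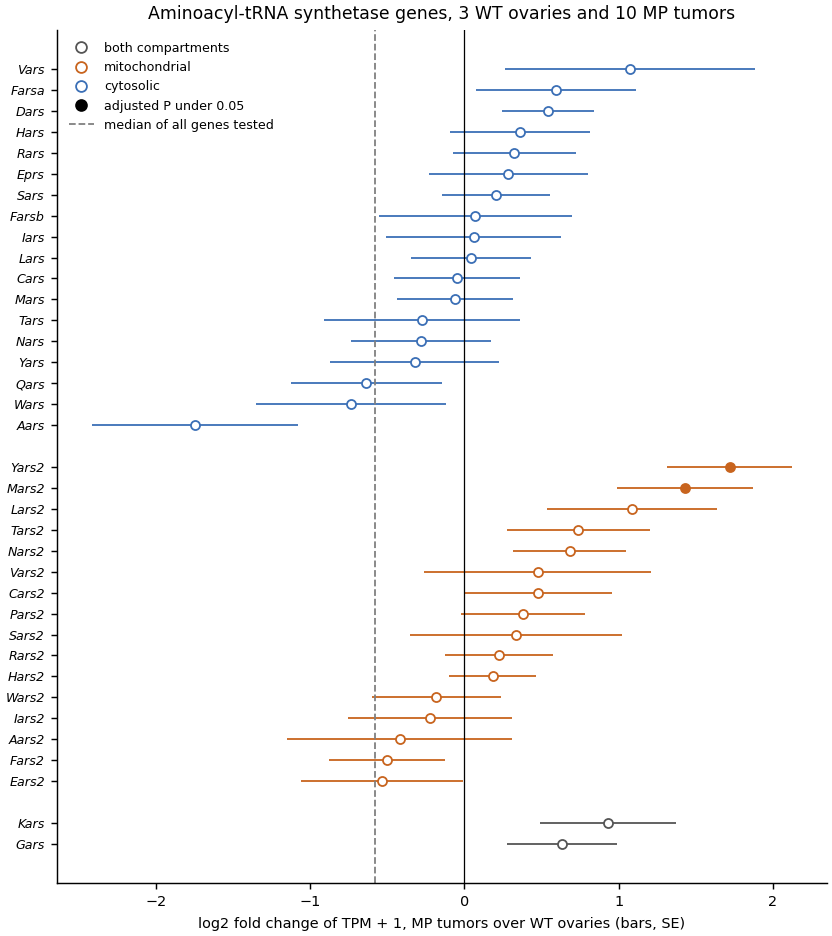
Log2 fold change of TPM + 1 (x axis) of 36 of the 37 synthetase genes, grouped by the compartment their enzyme serves; bars are standard errors over 3 WT ovaries and 10 MP tumors, filled points passed the test, and the dashed line is the median of all genes tested (-0.58). The filled points are Yars2 (1.72) and Mars2 (1.43), and Aars (-1.75) lies lowest.

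The RefSeq promoters of Yars2 and Mars2, the genes that rose, and of Aars, the gene whose tumor values all lay below the WT values, are shown with the elements through which ATF4 and MYC are known to act. The 250 bases before each start site are given on the gene's strand (GRCm38.p6), with an amino acid response element (TGATGNAA on either strand) and an E-box (CACGTG, its own reverse complement) in capitals. They lie at chr16:16302715-16302964 (+) for Yars2, chr1:55236927-55237176 (+) for Mars2 and chr8:111033592-111033841 (+) for Aars.
Yars2: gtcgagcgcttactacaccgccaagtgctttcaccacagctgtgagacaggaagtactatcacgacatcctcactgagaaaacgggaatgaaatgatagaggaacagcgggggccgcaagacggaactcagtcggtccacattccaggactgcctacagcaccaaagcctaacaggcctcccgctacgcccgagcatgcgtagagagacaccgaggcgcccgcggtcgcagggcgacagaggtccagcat
Mars2: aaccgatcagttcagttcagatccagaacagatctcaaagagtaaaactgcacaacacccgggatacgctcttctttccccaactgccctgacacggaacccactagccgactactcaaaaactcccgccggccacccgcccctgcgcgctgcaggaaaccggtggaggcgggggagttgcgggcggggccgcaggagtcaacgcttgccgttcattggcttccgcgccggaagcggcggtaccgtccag
Aars: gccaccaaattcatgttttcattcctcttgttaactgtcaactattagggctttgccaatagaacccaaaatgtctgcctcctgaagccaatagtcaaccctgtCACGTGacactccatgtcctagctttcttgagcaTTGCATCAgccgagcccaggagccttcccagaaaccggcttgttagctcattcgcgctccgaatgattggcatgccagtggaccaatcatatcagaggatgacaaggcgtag
Neither element was in the Yars2 or Mars2 stretch, and most genes lack them: over the longer windows searched, which run 50 bases past the start site, the response element was in 4.51% and the E-box in 8.09% of all genes. The Aars stretch held 1 E-box, 146 bases before the start site, and 1 amino acid response element on the opposite strand, 112 bases before it. These are matches of letters and say nothing of binding.

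Yars2, which charges the mitochondrial tyrosine tRNA, rose the most of the 37 genes in the test over all 13 libraries. With the length trend removed Mars2 rose more (2.52, against 2.44 for Yars2). Yars2 was at 26.2, 27.03 and 20.8 TPM in the WT ovaries and at 42.4 TPM in the lowest, 95.2 TPM at the median and 152 TPM in the highest MP tumor. Every tumor lay above every ovary. The mean was 24.7 ± 3.42 TPM (SD, n = 3) in WT and 90.3 ± 37.9 TPM (SD, n = 10) in MP, and the log2 fold change was 1.72 (SE 0.40, limma adjusted P = 0.00898), or 3.29-fold on the log2(TPM + 1) scale. Within the first request it was 1.99 (SE 0.37, limma adjusted P = 0.00228). Without WT3 the log2 fold change was 1.604 and the adjusted P from limma was 0.0650, the one left-out library that ended the call; without MP2 it was 1.76 and without the library labelled MP10 1.62.

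Mars2, the mitochondrial methionine enzyme, was also above every ovary in every tumor, at low levels. It was at 5.43, 5.02 and 3.81 TPM in the WT ovaries and at 7.46 (lowest), 16.7 (median) and 23.3 TPM (highest) in the MP tumors. Means were 4.75 ± 0.84 TPM (SD, n = 3) and 15.6 ± 6.25 TPM (SD, n = 10). The log2 fold change was 1.43 (SE 0.44, limma adjusted P = 0.0377), or 2.69-fold on the same scale, and within the first request it was 1.14 (SE 0.31, limma adjusted P = 0.0142). The call rested on the full set of libraries: it ended without WT1, WT2 or WT3 (limma adjusted P = 0.116, 0.121 and 0.169) and without MP1, MP3, MP6, MP7 or MP8 (0.0518, 0.0506, 0.0608, 0.0605 and 0.0613), while the log2 fold change stayed between 1.30 and 1.52. Without MP2 it was 1.52, and without the library labelled MP10 1.35, with the call kept in both. Yars2 and Mars2 were called higher under each other scaling, filter, pseudocount, request setting and tool that was tried. In GENCODE M21, which matched most gene coordinates of the table, the exons of neither gene overlapped those of another gene.

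Nars2, the mitochondrial asparagine enzyme, was the third gene with no overlap upward, so that 3 of 37 synthetase genes had every tumor above every ovary, against 3.02% of all genes tested. It was at 11.1, 11.02 and 10.5 TPM in the WT ovaries, and at 11.1 (lowest), 17.9 (median) and 30.2 TPM (highest) in the tumors. The lowest tumor, MP9, was only just above the highest ovary. Its log2 fold change of 0.68 (SE 0.36) did not pass the test (limma adjusted P = 0.201), nor did 0.89 within the first request (limma adjusted P = 0.0566). It passed with quantile normalization (limma adjusted P = 0.0366) and with limma-voom (adjusted P = 0.0319). A noncoding transcript on the opposite strand, C230038L03Rik, overlaps 4.08% of its exon bases, and whether counting used strand is not given in the sources used here.

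Aars, the cytosolic alanine enzyme, went the other way. It was at 70.0, 81.3 and 60.8 TPM in the WT ovaries and at 2.54 (lowest, MP2), 27.3 (median) and 46.6 TPM (highest) in the MP tumors. It was the 1 synthetase gene of 37 with every tumor below every ovary, a pattern found in 16.4% of all genes tested. Means were 70.7 ± 10.3 TPM (SD, n = 3) and 25.7 ± 14.99 TPM (SD, n = 10), and the log2 fold change of -1.75 (SE 0.67) did not pass the test (limma adjusted P = 0.0826). Within the first request, where the tumors were at 2.54 to 12.7 TPM, it was -3.27 (SE 0.50, limma adjusted P = 0.000829), 2.07 below the median of all genes there. The exons of Aars share 1326 bases, 14.3% of the total, with Exosc6 on the same strand, and Exosc6 was listed at 0 in all 13 libraries. Aars2, the mitochondrial alanine enzyme, did not separate the groups: the ovaries had a mean of 18.1 ± 2.12 TPM (SD, n = 3) and the gene ran from 2.04 to 36.3 TPM in the tumors, with 6 tumors above and 4 below all ovaries. Its log2 fold change was -0.42 (SE 0.73, limma adjusted P = 0.700) and turned positive under median-of-ratios scaling (0.21). Aars2 was lower within the first request, at -2.12 (SE 0.39, limma adjusted P = 0.00221), 0.92 below the median of all genes there.

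**Figure D2:**
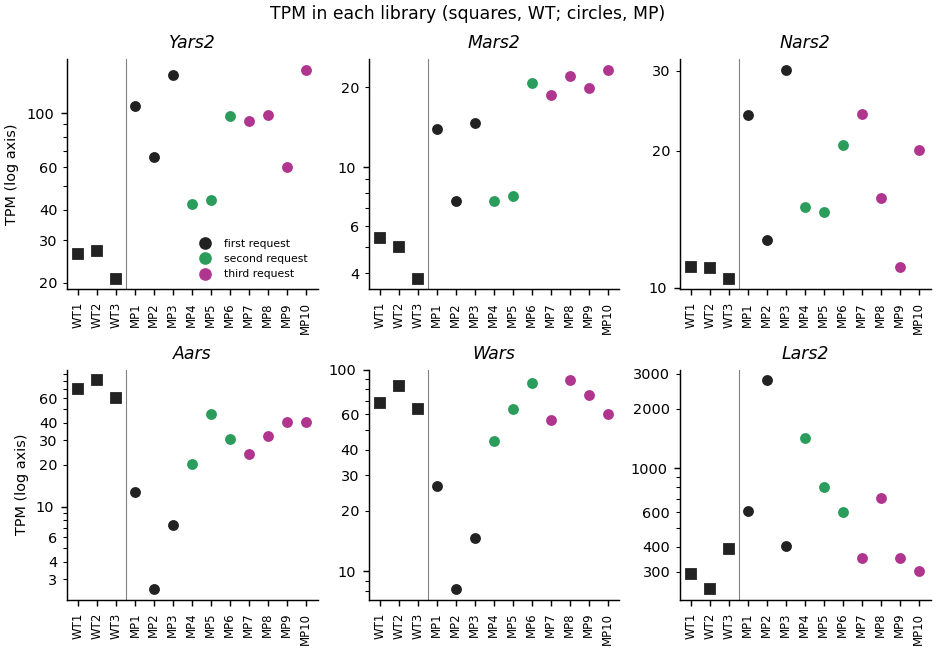
TPM (y axis, log scale) of 6 synthetase genes in each library (x axis), squares for WT ovaries and circles for MP tumors, colored by library request. Yars2, Mars2 and Nars2 lie above the ovaries in all 10 tumors, Aars lies below them in all 10, Wars is lowest in MP1 to MP3 (8.15 to 26.6 TPM), and Lars2 peaks in MP2 (2789 TPM).

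Vars, Vars2 and Wars, the genes for both valine enzymes and the cytosolic tryptophan enzyme, overlapped between the groups and split by request. Vars was at 62.6, 68.6 and 51.0 TPM in the ovaries and at 16.0 to 62.6 TPM in the tumors of the first request, 96.8 to 384 TPM in those of the second and 185 to 330 TPM in those of the third. All 7 tumors of the later requests were above the ovaries and those of the first request were not. The log2 fold change was 1.07 over all libraries (SE 0.81, limma adjusted P = 0.359) and -0.90 within the first request (limma adjusted P = 0.149). Vars2 was at 20.9, 19.9 and 19.01 TPM in the ovaries and at 6.92 to 9.53, 21.9 to 46.8 and 31.8 to 136 TPM in the tumors of the 3 requests. Its log2 fold change was 0.48 (SE 0.74, limma adjusted P = 0.661) over all libraries and -1.24 (limma adjusted P = 0.00350) within the first request, 0.04 below the median of all genes there. Vars2 was called higher with quantile normalization, the length trend removed, chromosome medians removed and limma-voom (adjusted P = 0.0380, 0.0335, 0.0336 and 0.0449 in limma), and Vars with the last 3 of these and with median-of-ratios scaling. Wars, the interferon-inducible tryptophan enzyme, was at 68.1, 83.0 and 64.0 TPM in the ovaries and at 8.15 to 26.6, 44.5 to 85.5 and 56.3 to 88.8 TPM in the tumors by request. The log2 fold change was -0.73 (SE 0.62, limma adjusted P = 0.410) over all libraries and -2.20 (limma adjusted P = 0.00310) within the first request. In 9 of the 37 synthetase genes every tumor of the first request was below the other 7 tumors, against 28.7% of all genes tested; the reverse held for 0 of 37 and for 0.805% of all genes. Request and the tumors within it cannot be told apart.

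Dars, the cytosolic aspartate enzyme and a member of the multi-synthetase complex, was at 112, 123 and 107 TPM in the ovaries and at 113 (lowest), 159 (median) and 290 TPM (highest) in the tumors. In 9 tumors Dars was above all ovaries, and in MP5 it lay within their range; the log2 fold change was 0.54 (SE 0.30, limma adjusted P = 0.213) and 0.81 within the first request (limma adjusted P = 0.0946). Lars2 was at 293, 244 and 392 TPM in the ovaries and at 302 (lowest), 604 (median) and 2789 TPM (highest, MP2) in the tumors, with 7 tumors above all ovaries. Its log2 fold change of 1.08 (SE 0.55) did not pass the test (limma adjusted P = 0.180), nor did 1.54 within the first request (limma adjusted P = 0.0901). With the request as a covariate the same 1.54 passed (limma adjusted P = 0.0426), the third gene called higher there. Reads of Lars2 may be shared with another gene: 72 bases of its transcript Lars2-201, which is 3894 bases long, match the noncoding RNA Gm15564 at 98.6% identity. The TPM of Lars2 was 0.230 to 0.312 times that of Gm15564 in all 13 libraries, while Gm15564 itself ran from 970 to 11461 TPM. In MP2, the mitochondrial ribosomal RNA mt-Rnr2 was at 71333 TPM, against 386 to 5653 TPM in the other 12 libraries. The part of Gm15564 reads in the Lars2 values was not tested.

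The balance between the compartments, taken as a difference of means, was lower in 9 of 10 tumors than in any ovary. In each library the mean log2(TPM + 1) of the 17 mitochondrial genes was subtracted from that of the 18 cytosolic genes to give a gap. The gap was 1.67, 1.869 and 1.74 in the WT ovaries (mean 1.76 ± 0.10, SD, n = 3) and 0.73 (lowest, MP2), 1.43 (median) and 1.875 (highest, MP9) in the MP tumors (mean 1.34 ± 0.32, SD, n = 10). MP9 alone lay above the ovaries, and barely. The group means differed by -0.42, and by -0.37 with Lars2 left out; no test was made of this score, since its members were chosen with earlier results known. Within the first request the difference was -0.75 and with quantile normalization -0.70. A few members weigh on these means: Aars, Yars2 and Mars2 had log2 fold changes of -1.75, 1.72 and 1.43. The median log2 fold change was 0.05 over the cytosolic and 0.38 over the mitochondrial genes. The gap without those 3 genes was not worked out.

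**Figure D3:**
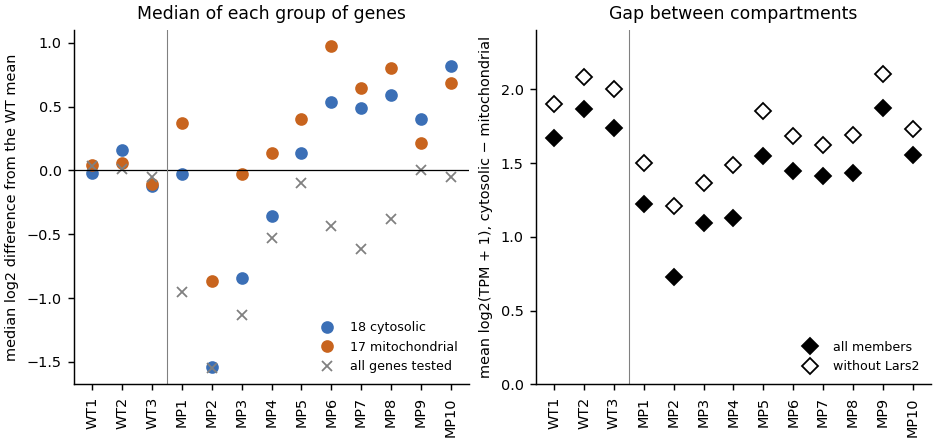
Left, median log2 difference from the WT mean (y axis) of the cytosolic genes, the mitochondrial genes and all genes tested in each library (x axis); right, the mean log2(TPM + 1) of cytosolic minus mitochondrial genes, with and without Lars2. In MP2 the median of the cytosolic genes was -1.54 and that of the mitochondrial genes -0.87, and the gap was 0.73, against 1.67 to 1.87 in the ovaries.

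Pair by pair, the ratio of the cytosolic to the mitochondrial enzyme moved in both directions. For 18 pairs that load the same amino acid, the mean log2 ratio was lower in the tumors in 11 and higher in 7, with a median difference of -0.14. The pairs are not all distinct: Eprs was set against both Ears2 and Pars2, and both Farsa and Farsb against Fars2. Every tumor was below every ovary in 3 pairs, each of which holds a gene whose own groups did not overlap (Yars2, Mars2 and Aars), and above in 0. The share of other gene pairs with such a pattern was not worked out. The Yars/Yars2 ratio was 1.67, 1.68 and 1.88 in the ovaries and 0.122 to 0.975 in the tumors, so that the mitochondrial gene had the higher TPM in all 10 tumors. The Mars/Mars2 ratio was 16.2, 20.97 and 22.5 in the ovaries and 3.54 to 12.6 in the tumors. The Aars/Aars2 ratio was 3.80, 4.07 and 3.84 in the ovaries and 0.843 to 2.96 in the tumors. Among the pairs that went up, Farsa/Fars2 (a subunit of the cytosolic phenylalanine enzyme over the mitochondrial enzyme) was 1.502 to 1.86 in the ovaries and 1.82 to 5.56 in the tumors, with 9 tumors above all ovaries. The ratio of Eprs to the mitochondrial glutamate enzyme Ears2 was 2.72 to 3.23 in the ovaries and 1.89 to 12.7 in the tumors, with 8 tumors above and 1 below.

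**Figure D4:**
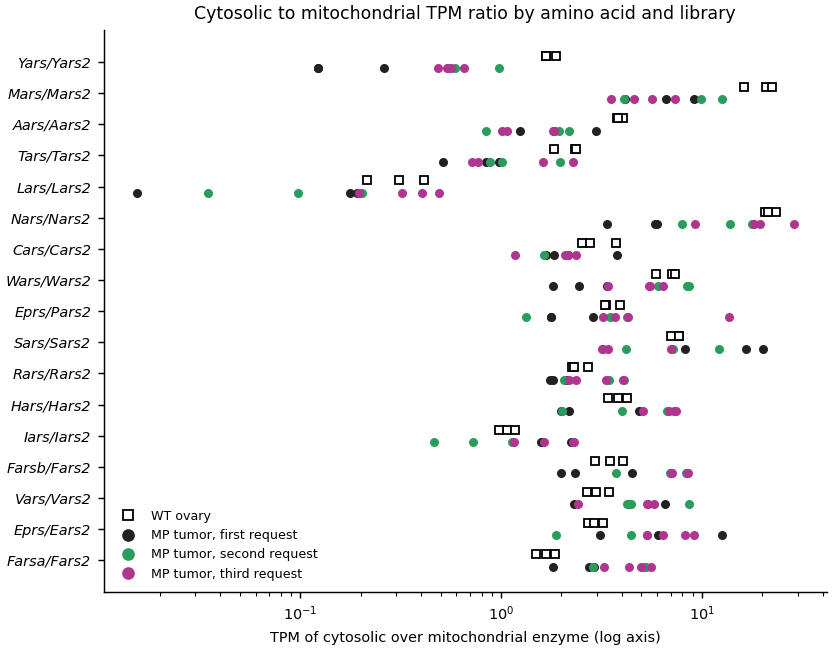
TPM of the cytosolic over the mitochondrial enzyme for the same amino acid (x axis, log scale) for 17 of the 18 pairs, open squares for the 3 WT ovaries and filled circles for the 10 MP tumors, colored by library request. The squares and circles separate in Yars/Yars2, Mars/Mars2 and Aars/Aars2.

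Among the tumors, MP2 and the library labelled MP10 held most of the extremes. MP2 was the lowest tumor for 31 of the 37 synthetase genes, and the library labelled MP10 was the highest for 14, MP6 for 7 and MP8 for 6. Without MP2, 4 synthetase genes were called higher (Gars, Kars, Mars2 and Yars2), against 3.68% of all genes. Without the library labelled MP10, Mars2 and Yars2 were, against 2.71% of all genes. The median difference of the synthetase genes from the WT mean was -1.23 in MP2, -0.51 in MP3 and 0.16 in MP1, where the median of all genes was -1.55, -1.14 and -0.96. In the other 7 tumors it ran from 0.01 in MP4 to 0.83 in the library labelled MP10, where the median of all genes was -0.53 and -0.05. The median of the synthetase genes was thus above that of all genes in each of the 10 tumors. The sum over the cytosolic and shared enzymes was 1652 to 1972 TPM in the ovaries and 730 to 3382 TPM in the tumors, and that over the mitochondrial enzymes without Lars2 was 319 to 363 and 217 to 799 TPM.

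Partner genes of the synthetases were listed as 20, among them Tarsl2, a threonyl-tRNA synthetase-like gene that the symbol rule does not match. Of the 20, 19 passed the filter. Of these, 4 were higher in the MP tumors and 0 lower, against 2.51% and 14.3% of all genes, and the median log2 fold change of the 19 was 0.49. The counts within the first request were 7 higher and 1 lower, against 6.44% and 57.3%. Dtd1, which strips D-amino acids from tRNA, was at 25.6 to 27.5 TPM in the ovaries and 52.6 to 171 TPM in the tumors (log2 fold change 1.78, SE 0.37, limma adjusted P = 0.00398, and 1.91 with adjusted P = 0.00738 within the first request). Eef1b2, a subunit of the exchange factor that recharges the elongation factor carrying charged tRNA, was at 644 to 791 TPM and 1268 to 3584 TPM (1.40, SE 0.31, limma adjusted P = 0.00694, and 1.89 with adjusted P = 0.00315 within the first request). The scaffold gene Aimp2 was at 26.3 to 34.1 TPM and 44.9 to 113 TPM (1.27, SE 0.35, limma adjusted P = 0.0235, and 1.42 with adjusted P = 0.0183 within the first request). Eef1g, another subunit of the exchange factor, was at 441 to 505 TPM and 450 to 1499 TPM (0.93, SE 0.31, limma adjusted P = 0.0492). The call on Eef1g ended within the first request, at 0.55 (SE 0.38, limma adjusted P = 0.233). The other scaffold genes did not pass: Aimp1 (log2 fold change 0.49) had an adjusted P of 0.269 and Eef1e1 (1.65) one of 0.0672 in limma. Aimp1 was at 0.71 (limma adjusted P = 0.1097) within the first request, where Eef1e1 passed at 2.62 (limma adjusted P = 0.00114). Leaving out 1 library moved the count of 4 to between 1 and 6, and only WT1, WT2 and WT3 took it below 3.

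Of 17 genes of the amino acid response, 3 were higher in the tumors and 0 lower, against 2.51% and 14.3% of all genes, and the median log2 fold change was -0.30 (-0.90 within the first request and 0.37 with median-of-ratios scaling). In the first request alone 4 were higher and 8 lower, against 6.44% and 57.3%. Asns, which makes asparagine, was at 50.1, 55.6 and 28.0 TPM in the ovaries and at 77.1 to 318 TPM in the tumors (2.20, SE 0.40, limma adjusted P = 0.00150, and 1.69 with adjusted P = 0.0218 within the first request). Phgdh, the first enzyme of serine synthesis, was at 33.0 to 50.2 TPM and 164 to 587 TPM (3.34, SE 0.36, limma adjusted P = 1.03e-05, and 3.08 with adjusted P = 0.00130 within the first request). Psat1, the next enzyme of that pathway, was at 15.2 to 29.7 TPM and 141 to 525 TPM (3.30, SE 0.42, limma adjusted P = 5.11e-05, and 3.89 with adjusted P = 0.000513 within the first request). The RNA of Atf4 itself, which is known to be controlled mainly in translation, was at 326 to 377 TPM in the ovaries and 146 to 486 TPM in the tumors (-0.01, SE 0.34, limma adjusted P = 0.988, and -0.27 with adjusted P = 0.637 within the first request). Of 7 interferon gamma genes, 6 passed the filter, 0 were higher and 3 were lower, against 14.3% of all genes lower, among them the guanylate-binding protein genes Gbp2 (-3.56, SE 0.97, limma adjusted P = 0.0214) and Gbp3 (-2.67, SE 0.86, limma adjusted P = 0.0449). In the first request alone 5 were lower, against 57.3% of all genes, with Gbp2 at -4.78 (limma adjusted P = 7.52e-05) and Gbp3 at -3.80 (limma adjusted P = 3.61e-05). With median-of-ratios scaling 1 was lower, against 10.9% of all genes. That gene was Gbp2, and the call on Gbp3 ended there, with quantile normalization and with the length trend removed (limma adjusted P = 0.0599, 0.0513 and 0.0537).

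**Figure D5:**
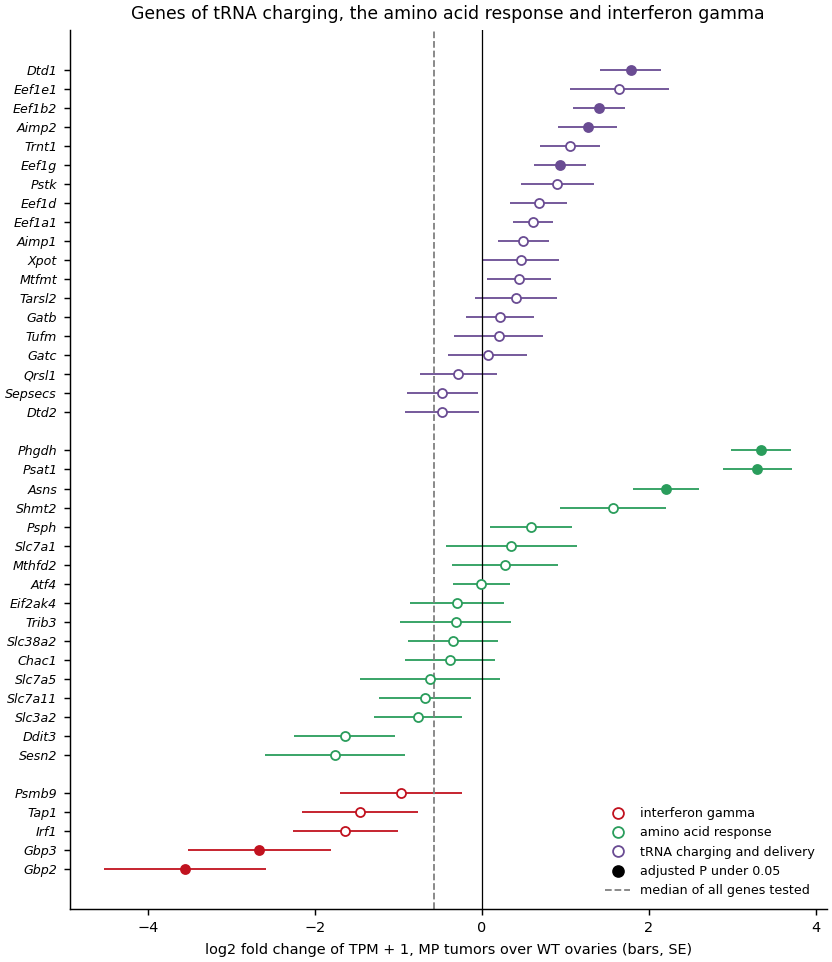
Log2 fold change of TPM + 1 (x axis) with standard errors over 3 WT ovaries and 10 MP tumors for genes of tRNA charging and delivery, the amino acid response and the interferon gamma response, 1 gene of the last list not drawn; filled points passed the test and the dashed line is the median of all genes tested. Phgdh (3.34), Psat1 (3.30) and Asns (2.20) lie farthest to the right, and Gbp2 (-3.56) farthest to the left.

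The promoter windows of the other synthetase genes were searched for the same elements, over 250 bases before to 50 bases after the RefSeq start site. Windows were matched for 27 of the 37 genes, and Nars, Vars and Wars were among those not matched. The amino acid response element was in 5 of 27 (18.5%), against 4.51% of all 27025 genes with a window. The 5 were Aars, Iars, Tars and Yars of 11 cytosolic genes and Gars of the 2 shared genes, with 0 of 14 mitochondrial genes. The E-box was in 5 of 27 (18.5%), against 8.09% of all genes: Aars, Farsb, Iars and Tars among the cytosolic genes and Ears2 among the mitochondrial genes. Of the 5 genes with an amino acid response element, 0 passed the test over all 13 libraries, where 2.51% of all genes were higher and 14.3% lower; their log2 fold changes were -1.75 for Aars, -0.32 for Yars, -0.28 for Tars, 0.06 for Iars and 0.63 for Gars. Within the first request Aars, Yars, Tars and Iars were lower (limma adjusted P = 0.000829, 0.0286, 0.0490 and 0.0475), as were 57.3% of all genes, and with median-of-ratios scaling Gars was higher (limma adjusted P = 0.0153), as were 7.47% of all genes.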

How the data were processed

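RNA of 3 WT ovaries and 10 MP tumors was sequenced as 76-base single-end reads. The authors deposited gene-level TPM values, each library scaled to a total of 1000000, with gene length and coordinates. The submitters' processing notes name FastQC 0.11.5, Trimmomatic 0.36, STAR 2.5.3a and featureCounts 1.6.3 with mm10/GRCm38, whereas the extract protocol names a human build, HTSeq and RPKM; whole reads could be worked back from TPM and gene length (tolerance 0.01 read). The annotation release is not given in the sources used here; 96.2% of all genes and 89.2% of the synthetase genes had the start and end of GENCODE M21. A share taken by a few genes lowers all others in TPM.

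Samples were grouped by title. TPM values were tested as log2(TPM + 1) with limma 3.58.1 (trend and robust; R 4.3.3), over genes that reached 1 TPM in 3 or more libraries, with Benjamini-Hochberg adjustment over all of them and a threshold of 0.05; fold changes on this scale understate those of low genes. Replicates differed beyond counting error (chi-square over degrees of freedom 28.4 to 657 for pairs of libraries of 1 group); nothing names separate cultures or litters, so P values measure the spread between these samples. Named synthetase genes were those past the threshold, those whose groups did not overlap, the 3 with the largest statistic among cytosolic and among mitochondrial genes, the 3 with the largest SD over tumors, and Wars. Of the other lists, genes past the threshold were named, with Atf4, Asns, Aimp1, Aimp2 and Eef1e1. The genes, lists and rules were chosen with earlier results of these data known. Promoters are from RefSeq (GRCm38.p6); transcripts were compared with blastn 2.17.0. Other pseudocounts, filters, scalings, request settings, left-out libraries and limma-voom on the worked-back reads were tried. Protein sequences were not analysed here. The values of 2 genes, which stay in all counts, medians and gaps, are not reported here.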

Additional observations from a re-analysis of the deposited data

Results flagged for a closer look

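Dixon's ratio of the gap to the range was taken on TPM for 41 sets of tumor values (the 37 synthetase genes and 4 others). In 5 sets 1 tumor lay far from the other 9. The rate of about 1 in 20 for this rule, or 2.05 of 41, holds for independent sets of normal values. These sets share their tumors, and all 5 flags fell in MP2 or the library labelled MP10. The 5 can therefore not be set against that rate. Lars2 was at 2789 TPM in MP2, with the next tumor at 1422 TPM. Sars, the cytosolic serine enzyme, was at 37.1 TPM in MP2, with the next lowest tumor at 96.7 TPM. Tars, the cytosolic threonine enzyme, was at 152 TPM in the library labelled MP10, with the next tumor at 66.0 TPM. Vars2 was at 136 TPM in the same library, with the next at 51.8 TPM. Trp53 was at 187 TPM there, with the next tumor at 26.0 TPM. None of these genes passed the test over all 13 libraries. Within the first request, which does not hold MP10, Tars, Vars2 and Trp53 were lower (limma adjusted P = 0.0490, 0.00350 and 0.000181), as were 57.3% of all genes. They lay 0.26, 0.04 and 2.21 below the median of all genes there. What set the values apart was not tested.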

How the results depend on the processing

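Yars2 and Mars2 kept their direction in every setting tried, with log2 fold changes of 1.604 to 2.59 and 1.14 to 2.52. The counts of synthetase genes depended on the scaling and on the libraries and request terms used, and the cause was not tested. With another pseudocount, filter or limma option, and with ribosomal RNA genes and Lars2 left out (chosen after seeing the data), 2 were called higher and 0 lower. The counts higher and lower were 13 and 0 with median-of-ratios scaling, 12 and 1 with quantile normalization, 14 and 0 with the length trend removed, 15 and 1 with chromosome medians removed and 18 and 1 with limma-voom on worked-back reads. They were 3 and 11 with the request number as a covariate and 2 and 12 within the first request, a setting that is also the fit without the block over the numbered libraries. Leaving out 1 library gave 0 to 4 higher (0 without WT3, 4 without MP2, and 1 without WT1, WT2, MP1, MP3, MP6, MP7 or MP8) and 0 lower, while 0.544% (without WT3) to 3.68% (without MP2) of all genes were higher and 6.70% to 18.9% lower. At an unadjusted P under 0.05, limma gave 3 of 37 without WT3. It also gave 3 over all 13 libraries, where 33.0% of all genes passed that cut. The share of all genes without WT3 was not worked out.

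The replicate numbers shared by WT1 to WT3 and MP1 to MP3 did not pair the samples (correlations of deviations -0.10, -0.02 and 0.001). With the number as a block, 2 synthetase genes were higher and 9 lower, against 2 and 12 without it; 6 of 19 partner genes were higher and 1 lower, and 4 of 17 amino acid response genes were higher and 9 lower. Of all genes, 6.34% were higher and 56.9% lower with the block, against 6.44% and 57.3% without it.

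Partner genes called higher, of 19, numbered 7 with median-of-ratios scaling, 10 with quantile normalization, 11 with the length trend removed and 8 with chromosome medians removed, against 7.47%, 11.0%, 11.6% and 12.9% of all genes. They numbered 7, with 1 lower, both with the request covariate (5.17% of all genes higher and 49.4% lower) and within the first request (6.44% and 57.3%); leaving out 1 library gave 1 to 6. Amino acid response genes called higher, of 17, numbered 5 with the length trend removed (11.6% of all genes), and 8 were called lower both with the covariate and within the first request (49.4% and 57.3% of all genes); leaving out 1 library gave 3 to 4 higher and 0 to 1 lower. The difference in the gap between compartments was -0.75 with the covariate and within the first request, -0.70 with quantile normalization, and -0.47 to -0.35 with 1 library left out.

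Signs turned for several genes with printed fold changes, among them the following. Aars2 was at 0.21 with median-of-ratios scaling, 0.44 with quantile normalization, 0.32 with the length trend removed, 0.46 with chromosome medians removed and 0.26 with limma-voom. Wars was at 0.013 with the length trend removed and 0.28 with chromosome medians removed. Vars was at -0.90 and Vars2 at -1.24 with the request covariate, within the first request and with the replicate block. Atf4 was at 0.72 with median-of-ratios scaling and with limma-voom, 0.05 with quantile normalization and 0.55 with the length trend removed. Yars was at 0.38 and Tars at 0.42 with median-of-ratios scaling, and Iars at -0.89 within the first request. Aars stayed below 0 in every setting (-3.27 to -0.71; limma adjusted P from 6.05e-05 to 0.241). The tumor libraries are the shallower ones, and 3 ovaries limit every comparison.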
